A study of Mus musculus with 9 samples.

Results

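The transcripts described here are 7 targets of the transcription factor CREB in mouse striatum: Nr4a1, Nr4a2, Nr4a3, Sik1, Crem, Ppargc1a and 1700016P03Rik, the host gene of miR-212 and miR-132. They were named by symbol among 54532 Ensembl gene IDs, with symbols taken from GENCODE M21 on GRCm38. The genes were chosen by name with results of all 9 libraries known, so the measured counts that follow, such as the high Nr4a1, Nr4a3 and 1700016P03Rik in STING KO, had a part in the choice. The levels and fold changes of the 7 genes are therefore given as a description and carry no test.

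Polyadenylated RNA was sequenced from the striatum, the input nucleus of the basal ganglia, in 9 libraries, and the mice had a C57BL/6J background. Of these, 3 libraries came from mice lacking STING (STING KO), 3 from mice lacking cGAS (cGAS KO) and 3 from wild-type mice (WT). Both knockouts were made with CRISPR-Cas9. The series' design text places the knockout brains after ischemic stroke and does not say it of WT. If the WT brains had no stroke, genotype and stroke cannot be told apart in any comparison with WT. The sources used here give neither age, sex or time after stroke nor which exons were edited. The labels do not say that replicates are separate animals, so the spread between libraries may be technical.

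CREB is a transcription factor that binds cAMP response elements in promoters and is switched on by phosphorylation, through protein kinase A after cAMP or through calcium-dependent kinases after neuronal firing. Coactivators of the CRTC family join it, and its targets are made rapidly and for a short time. In spiny projection neurons of the striatum, dopamine and adenosine receptors set cAMP, and CREB targets are used as readouts of that signal. Several of the targets feed back: the kinase Sik1 keeps CRTC proteins out of the nucleus, and Crem encodes repressor forms as well as activators.

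The promoters of these genes are shown because the cAMP response element is the sequence by which CREB recognises a target. RefSeq start sites on GRCm38.p6 were matched for 4 of the 7 genes, Nr4a1, Nr4a2, Nr4a3 and Ppargc1a. The 250 bases upstream of each start are printed 5′ to 3′ on the strand of the gene, and capitals mark the short cAMP response element, TGACG or its reverse complement CGTCA.
Nr4a1, chr15:101266596-101266845, plus strand: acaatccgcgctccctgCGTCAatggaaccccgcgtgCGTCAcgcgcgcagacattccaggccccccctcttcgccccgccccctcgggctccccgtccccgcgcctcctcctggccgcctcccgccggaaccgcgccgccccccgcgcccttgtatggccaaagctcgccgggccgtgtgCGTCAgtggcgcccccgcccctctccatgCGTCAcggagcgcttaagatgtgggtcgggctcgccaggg
Nr4a2, chr2:57124004-57124253, minus strand: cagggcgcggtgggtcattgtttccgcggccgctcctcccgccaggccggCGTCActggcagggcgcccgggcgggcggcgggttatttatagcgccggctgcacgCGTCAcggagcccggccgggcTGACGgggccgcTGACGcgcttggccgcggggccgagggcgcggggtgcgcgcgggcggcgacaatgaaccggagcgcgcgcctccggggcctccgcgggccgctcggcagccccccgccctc
Nr4a3, chr4:48045055-48045304, plus strand: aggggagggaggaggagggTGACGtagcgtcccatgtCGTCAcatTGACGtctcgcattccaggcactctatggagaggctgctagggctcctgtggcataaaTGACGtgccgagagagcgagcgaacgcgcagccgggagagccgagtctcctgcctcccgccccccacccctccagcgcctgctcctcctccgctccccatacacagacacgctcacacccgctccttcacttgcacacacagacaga
Ppargc1a, chr5:51567726-51567975, minus strand: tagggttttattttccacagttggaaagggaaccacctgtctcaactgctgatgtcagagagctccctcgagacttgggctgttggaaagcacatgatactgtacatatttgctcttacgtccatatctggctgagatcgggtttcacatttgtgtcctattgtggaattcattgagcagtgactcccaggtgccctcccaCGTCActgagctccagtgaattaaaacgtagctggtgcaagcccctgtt
The short motif occurred 4 times upstream of each of Nr4a1, Nr4a2 and Nr4a3, and 1 time upstream of Ppargc1a. In Nr4a1 the copies began 233, 213, 69 and 40 bases before the start, and in Ppargc1a the copy began 49 bases before it. Of all 32851 promoter windows of the same length, 17.8% held the short motif at least 1 time and 0.688% held 3 or more copies, counting both strands. The full palindrome TGACGTCA was in 0 of the 4 windows and in 1.55% of all windows. The NBRE, AAAGGTCA or its reverse complement, which Nr4a receptors bind, and the CArG box of serum response factor were each in 0 of the 4, and in 1.34% and 1.47% of all windows. The full element overlaps the short one, and a match or its absence in this window describes the letters only.

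The mature microRNAs of the 1700016P03Rik locus are shown because their seeds, bases 2 to 8, set which messages they pair with. All lie on the plus strand of chromosome 11 (GRCm38.p6, RefSeq), and capitals mark the seed.
miR-212-5p, chr11:75173403-75173425: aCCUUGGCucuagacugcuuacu
miR-212-3p, chr11:75173443-75173464: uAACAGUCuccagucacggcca
miR-132-5p, chr11:75173686-75173707: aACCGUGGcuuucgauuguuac
miR-132-3p, chr11:75173723-75173744: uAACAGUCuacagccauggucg
The 3p forms of miR-212 and miR-132 share the seed AACAGUC, which no other of the 1679 mature mouse microRNAs in the table has, and they are identical at 17 of 22 positions. The 5p forms have seeds that differ from each other and from the 3p seed. In GENCODE M21 both hairpins lie in an intron of 1700016P03Rik. Libraries of polyadenylated RNA measure this host transcript and not the mature microRNAs.

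Library totals ranged from 14129021 to 21286775 counts. In each group 1 library stood apart by a low number of genes with 1 to 9 counts: STING KO replicate 2, cGAS KO replicate 2 and WT replicate 3 held 2280 to 4723 such genes, against 7096 to 7927 in the other 6. Levels are given as CPM, the count of a gene scaled to its library's size with TMM factors, and n = 3 libraries per group throughout. Cgas itself was at 0.262 to 1.10 CPM in cGAS KO and at 1.40 to 3.18 CPM in WT, and Sting1 was at 1.05 to 2.18 CPM in STING KO and at 1.34 to 4.06 CPM in WT. Whole-gene counts check a CRISPR-Cas9 knockout only weakly, since the transcript can remain. All 10 striatal spiny neuron markers had counts in every library and summed to 8352 to 8924 CPM in STING KO, 8456 to 10220 CPM in cGAS KO and 4964 to 9444 CPM in WT. The 4964 CPM was that of WT replicate 3, which stands apart, while WT replicates 1 and 2 were at 9444 and 8679 CPM.

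In STING KO striatum 4 of the 7 CREB targets, 1700016P03Rik, Nr4a1, Nr4a3 and Sik1, were above every WT library in all 3 libraries. Nr4a3 and Sik1 were above every WT library in cGAS KO as well. Crem and Ppargc1a overlapped between all groups, and Nr4a2 varied more between libraries of a group than between groups. All 7 genes passed the filter on low counts. Over all 17821 genes tested, 3.4% had every STING KO library above every WT library and 3.67% had every one below. The genes were listed with this comparison known, so nothing is read from their number.

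**Figure D1:**
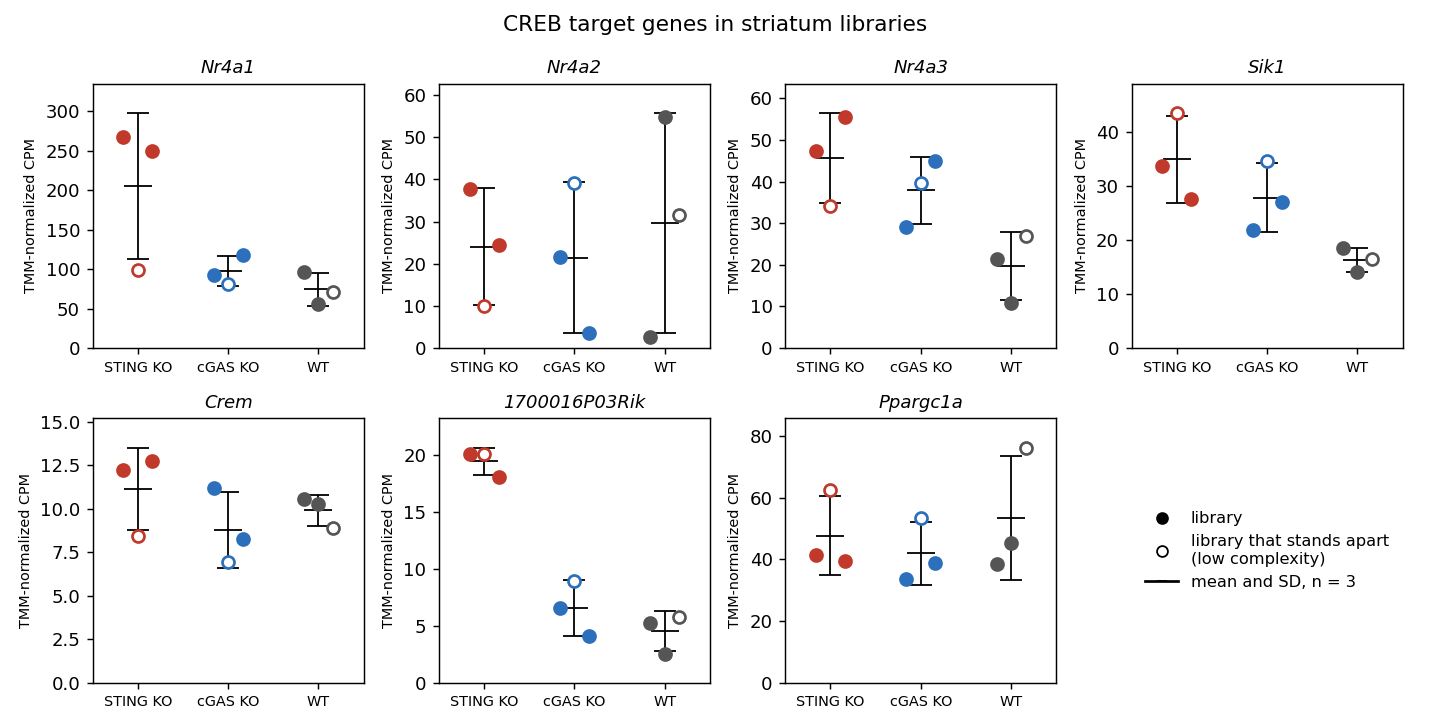
TMM-normalized CPM (y axis, from 0) of the 7 genes by genotype (x axis), with 1 point per library, open where the library stands apart, and the mean and SD of 3 libraries as bars. 1700016P03Rik is at 18.1 to 20.2 CPM in STING KO, above all other libraries, while the Nr4a2 points of every group spread widely.

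1700016P03Rik (ENSMUSG00000085609) is a noncoding transcript on chromosome 11, 75172560 to 75177633, plus strand. It was at 20.2, 20.1 and 18.1 CPM in STING KO replicates 1 to 3, at 6.61, 8.98 and 4.13 CPM in cGAS KO and at 5.24, 2.52 and 5.80 CPM in WT. The lowest STING KO library was above the highest library of either other group, and cGAS KO overlapped WT. Against WT the log2 fold change was 2.11 (SE 0.37) for STING KO and 0.54 (SE 0.37) for cGAS KO, and STING KO against cGAS KO gave 1.57 (SE 0.37). Its coefficient of variation within STING KO, 6.20%, was the smallest of any of the 7 genes in any group, against 36.9% in cGAS KO and 38.8% in WT. STING KO replicate 2, the library that stands apart in that group, was as high as the others.

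Of the 863 exonic bases of 1700016P03Rik, 641 (74.3%) are also exonic in Ovca2, a gene on the opposite strand. No source used here gives the strand setting of the counting, and reads from the shared bases cannot be assigned with certainty. Ovca2 was at 13.9, 14.4 and 11.8 CPM in STING KO, at 8.76, 4.53 and 8.12 CPM in cGAS KO and at 6.86, 6.98 and 6.65 CPM in WT. It too was higher in every STING KO library than in any other library, by a log2 fold change of 0.97 (SE 0.28) against WT and 0.90 (SE 0.28) against cGAS KO. By edgeR's quasi-likelihood test Ovca2 was not called in STING KO against WT (unadjusted p = 0.00602, adjusted p = 0.9999). Of the counts of both genes, 1700016P03Rik took 59.3% ± 1.12 in STING KO, 47.7% ± 16.9 in cGAS KO and 38.8% ± 10.7 in WT (SD, n = 3). What part of the difference in either gene comes from reads of the other was not tested.

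Reads were also counted at the hairpins, which the host's introns carry. Mir132 had 13, 12 and 22 counts in STING KO, 10, 5 and 12 in cGAS KO and 10, 5 and 5 in WT. Scaled to library size these were 0.958 ± 0.236 (STING KO), 0.581 ± 0.204 (cGAS KO) and 0.358 ± 0.0916 CPM (WT), with every STING KO library above every other. Mir212 had 21, 24 and 33 counts in STING KO, 14, 4 and 19 in cGAS KO and 17, 9 and 36 in WT. Its STING KO libraries were above cGAS KO and overlapped WT, where replicate 3 was the highest of all 9 at 2.55 CPM. Without the 3 libraries that stand apart, that WT library among them, the log2 fold change of Mir212 was 1.31 (SE 0.48) instead of 0.36 (SE 0.72) in STING KO against WT, and 0.69 (SE 0.50) instead of -0.66 (SE 0.74) in cGAS KO against WT. EdgeR called neither gene in STING KO against WT (Mir132 unadjusted p = 0.0443, Mir212 unadjusted p = 0.627, both adjusted p = 0.9999). These counts are close to the floor of 3 counts, so a change smaller than the spread was not detectable at this depth.

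**Figure D2:**
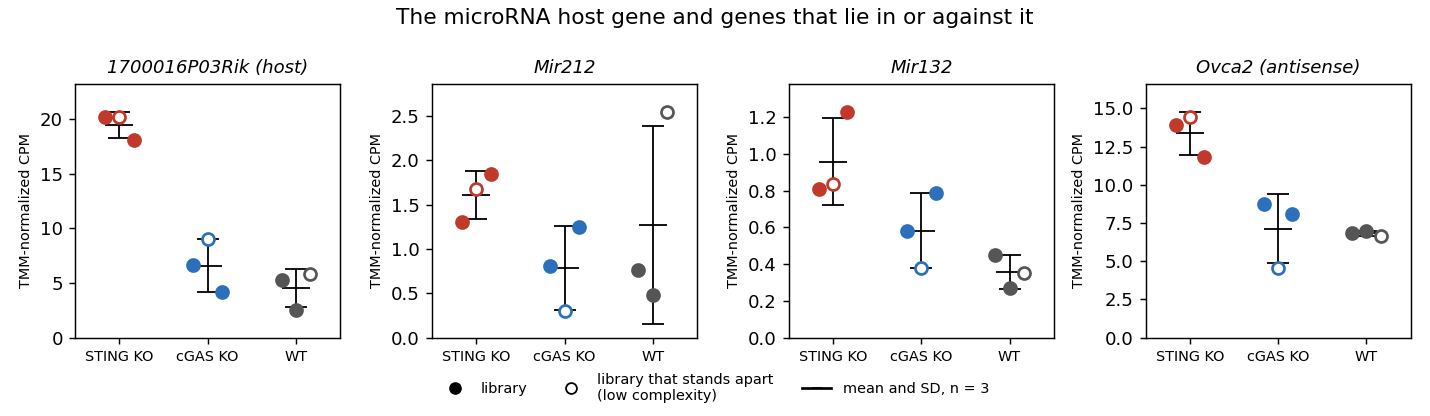
TMM-normalized CPM (y axis, from 0) of 1700016P03Rik, the hairpins Mir212 and Mir132 in its intron, and Ovca2 on the opposite strand, by genotype (x axis), with 1 point per library, open where the library stands apart, and the mean and SD of 3 libraries. STING KO is above WT without overlap for all but Mir212, where 1 WT library reaches 2.55 CPM.

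The Nr4a genes encode orphan nuclear receptors, transcription factors that act without a classical ligand, and in neurons they are made after stimulation. Nr4a1 (ENSMUSG00000023034, chromosome 15, 101254269 to 101274795) was at 267, 99.3 and 250.0 CPM in STING KO, at 92.7, 81.1 and 118.6 CPM in cGAS KO and at 96.8, 55.5 and 70.9 CPM in WT. STING KO replicates 1 and 3 were above every other library, while STING KO replicate 2 exceeded the highest WT library only slightly and lay within the cGAS KO range. The log2 fold change was 1.47 (SE 0.37) in STING KO against WT and 1.76 (SE 0.25) without the 3 libraries that stand apart. In cGAS KO against WT it was 0.39 (SE 0.36) and the groups overlapped.

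Nr4a3 (ENSMUSG00000028341, chromosome 4, 48045153 to 48086447) was at 47.3, 34.1 and 55.5 CPM in STING KO, at 29.1, 39.6 and 44.8 CPM in cGAS KO and at 21.4, 10.8 and 26.8 CPM in WT. Both knockouts lay above WT without overlap, and overlapped each other. Its log2 fold change was 1.22 (SE 0.34) in STING KO and 0.95 (SE 0.33) in cGAS KO, both against the same WT libraries. Between the knockouts it was 0.27 (SE 0.33), less than the spread.

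Nr4a2 (ENSMUSG00000026826, chromosome 2, 57106830 to 57124003), the receptor that midbrain dopamine neurons need and that the claustrum and deep cortex also make, was at 37.7, 9.97 and 24.4 CPM in STING KO. It was at 21.6, 39.2 and 3.54 CPM in cGAS KO and at 2.66, 54.8 and 31.6 CPM in WT. The lowest and the highest of the 9 values were both WT libraries, and the 3 groups overlapped. The coefficient of variation was 57.8% in STING KO, 83.1% in cGAS KO and 88.0% in WT, the largest of the 7 genes in each group. STING KO against WT gave a log2 fold change of -0.30 (SE 0.99), which turned to 0.12 (SE 1.06) without the 3 libraries that stand apart.

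The genes nearest to Nr4a2 in their pattern over the 9 libraries were Tbr1, Slc17a7 and Neurod6, which mark glutamatergic neurons of the cortex. Likeness was the root mean square distance between log2 CPM profiles centred on their mean, among 11994 other genes with at least 5 CPM, and these 3 genes lay 0.49, 0.61 and 0.62 from Nr4a2. Tbr1, a transcription factor of deep-layer neurons, was at 54.5, 17.3 and 48.0 CPM in STING KO, at 29.99, 47.5 and 6.81 CPM in cGAS KO and at 7.63, 45.7 and 74.1 CPM in WT. The libraries lowest in Nr4a2, WT replicate 1 and cGAS KO replicate 3, were also the lowest in Tbr1. Tbr1 was picked for its likeness over these same libraries, so this sharing follows from the choice. The ratio of Nr4a2 to Tbr1 was highest, at 1.20, in WT replicate 2, which was also the highest in Nr4a2. In WT replicates 1 and 3 this ratio was 0.349 and 0.426. The 6 cortical glutamatergic markers all had counts in every library. They summed to 242.0 to 604.4 CPM in STING KO, 73.8 to 448.5 CPM in cGAS KO and 67.5 to 1047 CPM in WT. Tbr1, Slc17a7 and Neurod6 are 3 of these 6, so the sum is not separate from the choice by likeness. The 6 claustrum and layer 6b markers also all had counts in every library. They summed to 129.8 to 154.0 CPM in STING KO, 109.0 to 199.4 CPM in cGAS KO and 102.3 to 155.4 CPM in WT. The lowest of these sums were again those of WT replicate 1 and cGAS KO replicate 3. Gnb4 had the highest mean of the 6 in each group, at 63.8 (STING KO), 80.7 (cGAS KO) and 71.3 CPM (WT). The sum thus hides the scarcer markers, which did not share a direction. Cplx3 was at 9.71 ± 3.87 (STING KO), 3.59 ± 2.54 (cGAS KO) and 3.46 ± 1.32 CPM (WT). Nxph4 and Ccn2 also had their highest mean in STING KO, while Gnb4, Ntng2 and Lxn did not. Ntng2 was at 30.1 (STING KO), 36.8 (cGAS KO) and 31.1 CPM (WT), and Lxn at 15.1, 13.0 and 15.3 CPM. Of the 4 midbrain dopamine markers, Slc6a3, the dopamine transporter, was at 0 in STING KO replicate 3 and WT replicate 3, and the 4 summed to 16.3 to 20.2 CPM in STING KO, 22.7 to 24.4 CPM in cGAS KO and 18.3 to 25.9 CPM in WT. In such bulk tissue, fewer cells of a type and less RNA per cell cannot be told apart, and the part of cortical tissue in the Nr4a2 values was not tested.

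**Figure D3:**
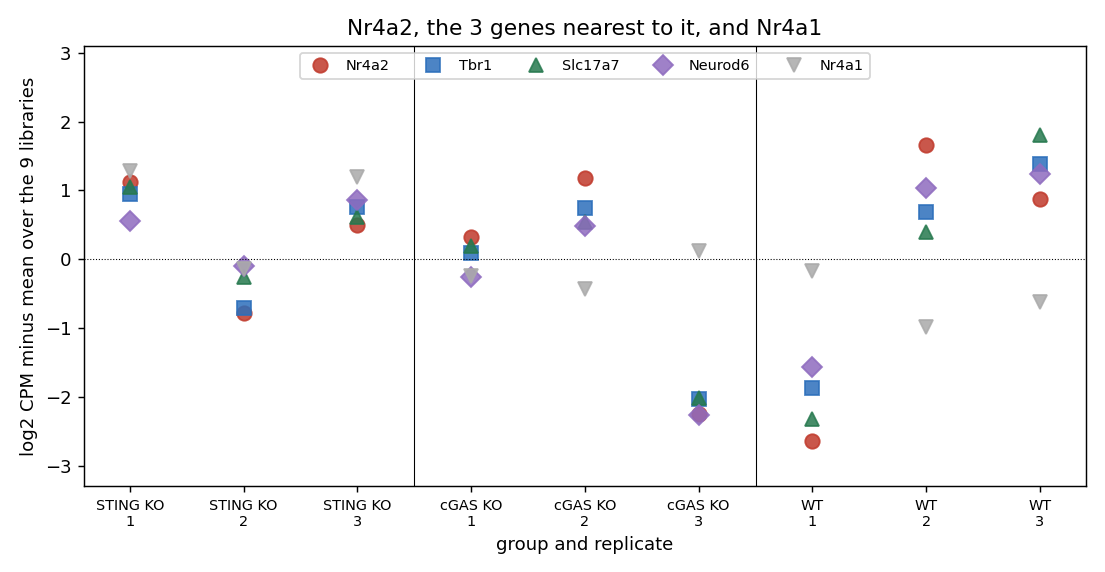
Log2 CPM minus its mean over the 9 libraries (y axis) of Nr4a2, of Tbr1, Slc17a7 and Neurod6, and of Nr4a1, by group and replicate (x axis), with 1 point per gene and library. The 3 cortical genes were picked as the nearest to Nr4a2 over these libraries. They and Nr4a2 are lowest together in cGAS KO replicate 3 and WT replicate 1, where Nr4a1 is near its mean.

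Per kilobase of exon, the summed Nr4a family was at 93.3, 36.4 and 86.5 CPM in STING KO, at 36.6, 39.4 and 42.2 CPM in cGAS KO and at 31.8, 31.1 and 32.5 CPM in WT. All knockout libraries were above all WT libraries, and STING KO replicate 2 lay below every cGAS KO library. On the same scale Nr4a1 made up 80.5% ± 2.53 of the family in STING KO, 70.3% ± 10.9 in cGAS KO and 66.6% ± 18.3 in WT (SD, n = 3). Nr4a2 made up 2.06% in WT replicate 1 and 43.4% in WT replicate 2, so the make-up of the family differed most among WT libraries.

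Sik1 (ENSMUSG00000024042, chromosome 17, 31844250 to 31855804) encodes the salt-inducible kinase that limits CREB output through the CRTC coactivators. It was at 33.6, 43.4 and 27.6 CPM in STING KO, at 21.9, 34.6 and 26.9 CPM in cGAS KO and at 18.4, 14.01 and 16.4 CPM in WT. Every library of either knockout was above every WT library, and the knockouts overlapped each other. The log2 fold change against WT was 1.10 (SE 0.24) in STING KO and 0.77 (SE 0.24) in cGAS KO. Without the 3 libraries that stand apart it was 0.91 (SE 0.20) in STING KO and 0.59 (SE 0.20) in cGAS KO. The genes nearest to it in pattern were 2810459M11Rik, Kdm6b, a histone demethylase, and Egfem1, at distances of 0.21, 0.27 and 0.28.

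Crem (ENSMUSG00000063889, chromosome 18, 3266048 to 3337748), a close relative of CREB, gives rise to activators and, from an internal promoter, to the ICER repressors that cAMP induces. It was at 12.3, 8.43 and 12.8 CPM in STING KO, at 11.2, 6.94 and 8.25 CPM in cGAS KO and at 10.6, 10.3 and 8.91 CPM in WT. The groups overlapped, and the library that stands apart was the lowest of each group. Crem had a log2 fold change of 0.17 (SE 0.26) in STING KO against WT and -0.17 (SE 0.26) in cGAS KO against WT. GENCODE lists 39 transcripts for Crem and the counts sum them, so a change in ICER could not be told from one in the other forms. The antisense gene Gm6225 shares 8.01% of the exonic bases of Crem and had 8 to 22 counts in each library.

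Ppargc1a (ENSMUSG00000029167, chromosome 5, 51454250 to 51567726) encodes PGC-1α, the coactivator that drives mitochondrial genes. It was at 41.4, 62.5 and 39.4 CPM in STING KO, at 33.6, 53.5 and 38.8 CPM in cGAS KO and at 38.6, 45.4 and 76.2 CPM in WT. The groups overlapped, and in each group the highest value was that of the library that stands apart. The log2 fold change was -0.16 (SE 0.30) in STING KO against WT and -0.35 (SE 0.30) in cGAS KO against WT. Without those libraries these were -0.06 (SE 0.15) and -0.21 (SE 0.15). The genes nearest to Ppargc1a were Fam13b, Abca8b and Osbpl6, at distances of 0.07, 0.07 and 0.08, and those nearest to Crem were Dmpk, Gnpda1 and Smug1, each at 0.08.

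**Figure D4:**
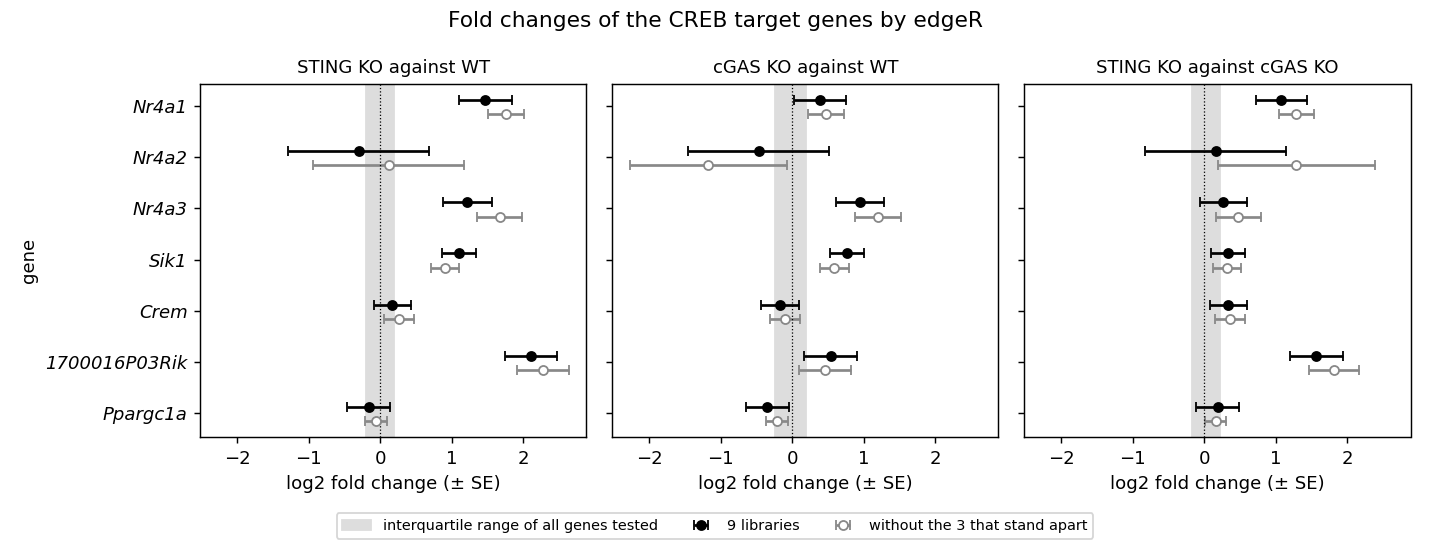
Log2 fold change with its SE (x axis) of the 7 genes (y axis) in the 3 comparisons, over 9 libraries (filled) and without the 3 that stand apart (open), with the interquartile range of all genes tested in grey. 1700016P03Rik has the highest value in STING KO against WT, 2.11, and Nr4a2 the widest SE over 9 libraries, 0.99.

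The order of the groups was STING KO, cGAS KO, WT for the mean levels of Nr4a1, Nr4a3, Sik1 and 1700016P03Rik. In Nr4a3 and Sik1 the gap between the knockouts was smaller than the larger SD, and the gap from cGAS KO to WT was larger. In 1700016P03Rik it was the other way round, with 12.9 CPM between STING KO and cGAS KO against an SD of 2.43, and 2.05 CPM between cGAS KO and WT. For Nr4a2, Crem and Ppargc1a neither gap exceeded the larger SD. In cGAS KO against WT, 2 of the 7 genes had all libraries higher, where 4.0% of all genes tested did and 4.0% had all libraries lower. In STING KO against cGAS KO, 1 of the 7 had all libraries higher, where 3.63% of all genes did and 3.72% had all lower.

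Over the 7 genes the median log2 fold change was 1.10 for STING KO and 0.39 for cGAS KO, each against WT, and 0.33 between STING KO and cGAS KO. The 1.10 is the value of Sik1 and no shift common to the 7. In that comparison Crem, Ppargc1a and Nr4a2 were at 0.17, -0.16 and -0.30, and 1700016P03Rik was highest at 2.11. Over all genes tested the medians were 0.00, -0.01 and 0.01. The comparisons share libraries and are not independent. In single libraries, the number of the 7 genes above every WT library was 5, 4 and 5 in STING KO replicates 1 to 3 and 4, 3 and 3 in cGAS KO replicates 1 to 3. The share of all genes was not counted for single libraries, and the 7 were chosen with these values known. Nothing is therefore read from these numbers.

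Per kilobase of exon, the order of levels in STING KO was Nr4a1 at 58.6 ± 26.3, 1700016P03Rik at 22.5 ± 1.40, Nr4a3 at 7.62 ± 1.81, Ppargc1a at 7.25 ± 1.95, Sik1 at 6.79 ± 1.56, Nr4a2 at 5.92 ± 3.42 and Crem at 1.89 ± 0.400 CPM. In cGAS KO Nr4a1 was at 27.8 ± 5.48 CPM per kilobase, followed by 1700016P03Rik at 7.62 ± 2.81, and Crem was again lowest at 1.49 ± 0.370. In WT the order was Nr4a1 at 21.2 ± 5.96, Ppargc1a at 8.10 ± 3.04, Nr4a2 at 7.31 ± 6.43, 1700016P03Rik at 5.24 ± 2.03, Nr4a3 at 3.28 ± 1.36, Sik1 at 3.17 ± 0.430 and Crem at 1.68 ± 0.149. From Nr4a3 to Nr4a2 in STING KO, and for Ppargc1a with Nr4a2 and Nr4a3 with Sik1 in WT, neighbours in the order lay within each other's SD. By group means 1700016P03Rik stood below Ppargc1a and Nr4a2 in WT, and above both in STING KO. In WT replicate 1, though, it was at 6.07 CPM per kilobase, above Ppargc1a at 5.86 and Nr4a2 at 0.656. WT replicates 2 and 3 had it below both.

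Among genes outside the 7, Nr4a1 was most like Arc, an activity-regulated synaptic protein, and Egr1, a zinc finger transcription factor, at distances of 0.30 and 0.35, with Nrarp, a Notch regulator, at 0.39. Fosl2, an AP-1 subunit, was nearest to both Nr4a3, at 0.24, and 1700016P03Rik, at 0.51. Midn and Kcns1 were next for Nr4a3, at 0.36 and 0.41, and AC149090.1 and Papln for 1700016P03Rik, at 0.53 and 0.57. Fosl2 was at 64.4, 56.3 and 63.0 CPM in STING KO, at 33.4, 45.7 and 42.1 CPM in cGAS KO and at 26.4, 14.9 and 26.7 CPM in WT. Within the 7, the closest pair was Nr4a3 and Sik1, at 0.44, and Nr4a2 was at least 1.40 from every other. Profiles were centred but not scaled, so distances also grow with how much a gene varies. The SD of log2 CPM over the 9 libraries was 1.46 for Nr4a2, 0.36 for Ppargc1a and 0.27 for Crem. Distances of different genes from their nearest genes are therefore not comparable.

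A further 34 genes known as CREB targets were listed with earlier results of these libraries known, so their direction is not independent evidence. In STING KO against WT, edgeR's quasi-likelihood test called 0 of the 34 and 0 of all 17821 genes (0% called) at an adjusted p under 0.05. At an unadjusted p under 0.05 there were 11 of the 34, beside 1.63% of all genes. DESeq2, run with no count filter, called 3 of the 34, Fos, Fosl2 and Arc, beside 0.0455% of the genes it gave an adjusted p. Limma-voom with library quality weights called 12 of the 34, beside 0.999% of all genes. Of the 34, 31 lay above zero in fold change, at a median log2 value of 0.58, beside 49.4% of all genes. Without the 3 libraries that stand apart, edgeR called Arc and Junb, both with an adjusted p = 0.0283, beside 0.0227% of all genes tested.

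Of the 12 further targets with the largest fold change in STING KO against WT, the AP-1 subunit Fos was at 29.3 ± 16.8 (STING KO), 6.78 ± 1.44 (cGAS KO) and 6.72 ± 1.34 CPM (WT). The phosphatase gene Dusp1 was at 47.0 ± 15.7 (STING KO), 18.2 ± 3.69 (cGAS KO) and 23.4 ± 0.699 CPM (WT). Both were above every WT library in all 3 STING KO libraries. Egr2, a zinc finger transcription factor, was at 32.2 ± 18.4 (STING KO), 17.3 ± 8.03 (cGAS KO) and 7.07 ± 4.14 CPM (WT), and its STING KO and WT libraries overlapped. Junb, another AP-1 subunit, was at 103.2 ± 65.5 (STING KO), 54.3 ± 3.91 (cGAS KO) and 28.9 ± 12.01 CPM (WT), and its STING KO and WT libraries overlapped. Arc was at 260.0 ± 113 (STING KO), 83.4 ± 7.47 (cGAS KO) and 84.4 ± 11.3 CPM (WT), with every STING KO library above WT. Egr1 was at 474.5 ± 158 (STING KO), 351 ± 50.1 (cGAS KO) and 249.6 ± 74.2 CPM (WT), and its STING KO and WT libraries overlapped. Fosb, Btg2, Ccn1, Cartpt and Atf3 overlapped between STING KO and WT, with log2 fold changes of 1.48, 1.12, 1.06, 1.95 and 0.92. Cartpt had a WT library at 0, and Atf3 had a STING KO and a WT library at 0.

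Of the 4 most abundant targets, Egr1 is given above, with a log2 fold change of 0.93 (SE 0.30) in STING KO against WT. Penk, the opioid precursor proenkephalin and the most abundant of the 34, was at 744 ± 363 (STING KO), 797 ± 339 (cGAS KO) and 704 ± 495 CPM (WT). Homer1, a scaffold protein of synapses, was at 317 ± 83.2 (STING KO), 321 ± 111 (cGAS KO) and 280.2 ± 50.2 CPM (WT). Vgf, a secreted neuropeptide precursor, was at 283 ± 147 (STING KO), 228 ± 57.3 (cGAS KO) and 198 ± 80.7 CPM (WT).

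In cGAS KO against WT edgeR called 0 of the 34 (0% of all genes called). DESeq2 with no count filter called 0 of the 34, beside 0.00314% of all genes, and limma-voom with weights 0, beside 0.0224%. Of the 34, 1 had an unadjusted p under 0.05, Fosl2, beside 2.03% of all genes. The list had a median log2 fold change of 0.21 with 25 of 34 positive, where 48.6% of all genes were positive. In STING KO against cGAS KO edgeR called 0 of the 34 (0% of all genes called), and 6 had an unadjusted p under 0.05, beside 1.45% of all genes. DESeq2 with no count filter called Fos, Arc and Dusp1 in that comparison, beside 0.0398% of all genes, and limma-voom with weights called these 3 as well, beside 0.163%. Without the 3 libraries that stand apart, edgeR called Arc (adjusted p = 0.0327), beside 0.017% of all genes tested. The list median was 0.49 with 29 of 34 positive, where 51.1% of all genes were positive.

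The machinery of CREB signalling, 31 genes for CREB itself, its coactivators, kinases, cyclases and phosphodiesterases, was counted in the same way. Its median log2 fold change was 0.04 for STING KO and 0.05 for cGAS KO, each against WT, and -0.06 between STING KO and cGAS KO. By edgeR, DESeq2 and limma-voom with weights 0 of the 31 were called in any of the 3 comparisons, and over all genes these tests called 0% by edgeR and at most 0.999% by the others. At an unadjusted p under 0.05 there were 0 in STING KO against WT and 0 in cGAS KO against WT, beside 1.63% and 2.03% of all genes, and 1 in STING KO against cGAS KO, beside 1.45%. Counts this low are near the shares of all genes and are no result about the list. Positive fold changes were 19 of 31 in each knockout against WT (49.4% of all genes for STING KO, 48.6% for cGAS KO), and 9 of 31 in STING KO against cGAS KO, where 51.1% of all genes were positive. Adcy5, the main adenylyl cyclase of the striatum, was at 1978 ± 276 (STING KO), 2281 ± 412 (cGAS KO) and 1738 ± 205 CPM (WT). Pde10a, a phosphodiesterase of spiny neurons, was at 1994 ± 482 (STING KO), 2038 ± 450.2 (cGAS KO) and 1877 ± 173 CPM (WT). Pde1b, a calcium-dependent phosphodiesterase, was at 1328 ± 54.1 (STING KO), 1388 ± 86.7 (cGAS KO) and 1118 ± 425 CPM (WT). Ppp3ca, the catalytic subunit of calcineurin, was at 3495 ± 2515 (STING KO), 4166 ± 2214 (cGAS KO) and 2657 ± 330 CPM (WT).

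Partners and targets of the 7 genes were listed as well, and edgeR, DESeq2 and limma-voom with weights called 0 of them in any comparison, with 0 at an unadjusted p under 0.05 by edgeR. Over all genes edgeR called 0% and 1.45% to 2.03% had an unadjusted p under 0.05, so these counts are no result about so few genes. The 8 known targets of miR-132 and miR-212 had a median log2 fold change of -0.08 in STING KO against WT and 0.07 in cGAS KO against WT. Arhgap32, a GTPase-activating protein that miR-132 represses, was at 587 ± 109 (STING KO), 784 ± 250.3 (cGAS KO) and 699.6 ± 266.5 CPM (WT). Mapt, the microtubule protein tau, was at 541 ± 175 (STING KO), 527 ± 205.5 (cGAS KO) and 481 ± 164.5 CPM (WT), and Foxo3, a forkhead transcription factor, at 133 ± 26.5 (STING KO), 171.5 ± 54.5 (cGAS KO) and 141 ± 25.9 CPM (WT). The 9 partners and relatives of PGC-1α had medians of 0.05 in STING KO against WT and 0.03 in cGAS KO against WT. Esrra, a nuclear receptor that PGC-1α coactivates, was at 51.0 ± 15.9 (STING KO), 46.6 ± 13.7 (cGAS KO) and 30.8 ± 13.9 CPM (WT). Gabpa, a factor of mitochondrial gene promoters, was at 37.1 ± 4.11 (STING KO), 36.6 ± 0.560 (cGAS KO) and 37.3 ± 4.68 CPM (WT). The 3 retinoid X receptors, with which Nr4a1 and Nr4a2 can pair, had medians of 0.23 for STING KO and 0.36 for cGAS KO, and the most abundant, Rxrg, was at 128 ± 10.2 (STING KO), 135 ± 16.3 (cGAS KO) and 104 ± 55.9 CPM (WT).

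**Figure D5:**
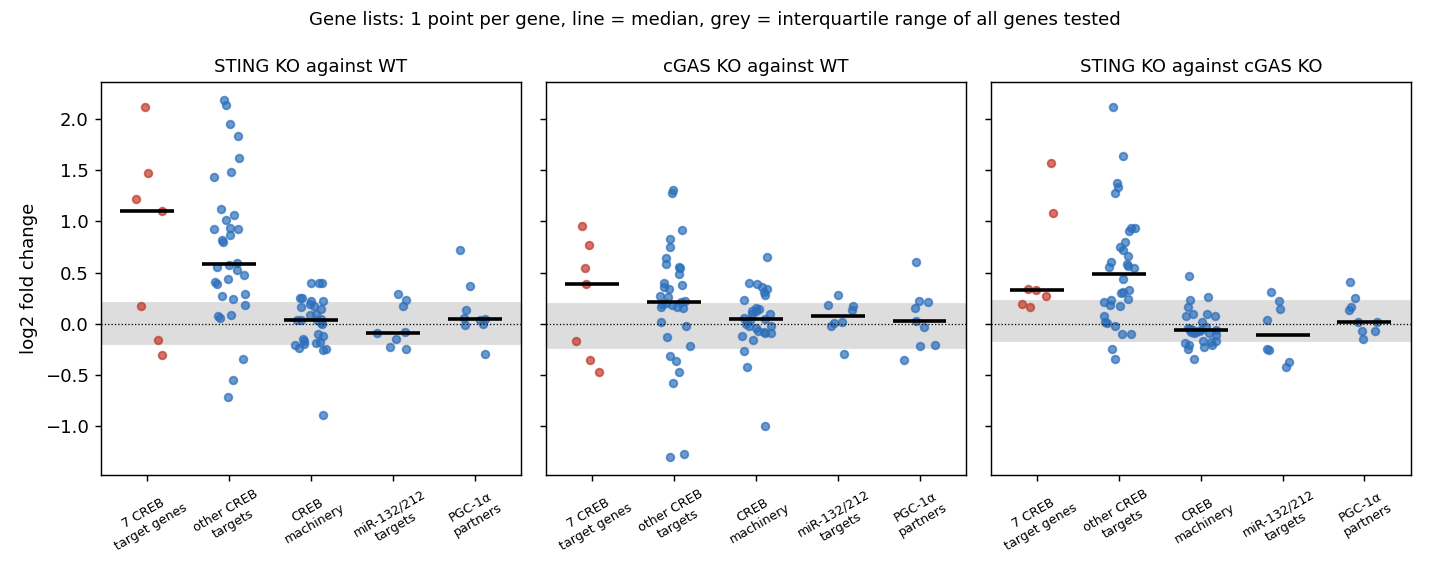
Log2 fold change (y axis) of each gene of 5 lists (x axis) in the 3 comparisons, with 1 point per gene, the list median as a line and the interquartile range of all genes tested in grey. The other CREB targets have a median of 0.58 in STING KO against WT, while the CREB machinery lies at 0.04.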

How the data were processed

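Polyadenylated RNA of 9 striatum libraries was sequenced as paired reads. The deposited values are raw counts per gene, made with HISAT2 and featureCounts on mm10, per the submitters' processing notes. The sources used here name no versions, annotation release or strand setting, and do not say how multi-mapping reads were treated. Of 54532 gene IDs, 54495 matched GENCODE M21. Groups and replicate numbers came from the sample titles. A chi-square comparison over genes, made only between libraries of the same group, found none deposited under 2 names within a group. Libraries of different groups were not compared in this way.

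The main test was the quasi-likelihood test of edgeR 4.0.16 (R 4.3.3), fitted to the counts of all 9 libraries with TMM factors and filterByExpr, which left 17821 genes. P-values were adjusted by Benjamini-Hochberg across those genes, with a threshold of 0.05. The SE of a fold change came from its F statistic. Log2 CPM used a prior count of 2. The floor of 3 counts is 0.141 to 0.212 CPM and covers counting error only. Exon lengths are unions over GENCODE transcripts.

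The genes, lists and tests were chosen with earlier results of these data known. Named were the 7 genes, the hairpins, the targeted genes, the genes of each list with the highest mean CPM (up to 4, of which Rxra, Rxrb, Pprc1 and Ppard are not described), the 12 CREB targets with the largest change, and the 3 genes nearest in pattern to each of the 7. A further gene under this rule is not reported here. Ovca2, Gm6225 and the neighbours of the host gene were added for their position. Alternatives were DESeq2 1.42.0 with no count filter, limma-voom (limma 3.58.1) with library quality weights, other scalings, no filter, only the libraries compared, a replicate block, and leaving out libraries. The edgeR fit was tested on simulated counts. The labels give no batch.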

Additional observations from a re-analysis of the deposited data

How the results depend on the processing

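The median log2 fold change of the 7 genes kept its sign in all 17 alternatives of each comparison, from 0.91 to 1.20 in STING KO against WT, 0.23 to 0.65 in cGAS KO against WT and 0.18 to 0.56 in STING KO against cGAS KO. The alternatives use the same libraries, with whose results known the 7 were chosen, so the kept sign is a description only. In STING KO against WT, Nr4a1 ranged from 1.24 to 2.00, Nr4a3 from 0.92 to 2.01, Sik1 from 0.91 to 1.24 and 1700016P03Rik from 1.81 to 2.63. The sign of Nr4a2 changed in 4 of 17 alternatives (-0.84 to 0.50) and that of Ppargc1a in 1 (-0.39 to 0.18). In cGAS KO against WT, Nr4a1 ranged from 0.20 to 0.82, Nr4a3 from 0.64 to 1.71, Sik1 from 0.59 to 0.92 and 1700016P03Rik from 0.23 to 0.79, and Nr4a2 ran from -2.29 to 0.32 with 2 changes of sign. Between STING KO and cGAS KO, Nr4a2 ran from -0.33 to 2.26 with 2 changes of sign and 1700016P03Rik from 1.32 to 1.97. Limma-voom with weights gave the 1.71 of Nr4a3.

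Counts of genes called changed with the settings. DESeq2 was run with no count filter, so tool and filter changed together there, and their parts were not told apart. Over all genes, edgeR's 0 calls in STING KO against WT became 10 with DESeq2, 4 with edgeR and no count filter, 4 without the 3 libraries that stand apart and 178 with limma-voom and quality weights. In cGAS KO against WT the calls were 1 with DESeq2 and 4 with limma-voom and weights. In STING KO against cGAS KO they were 8 with DESeq2, 4 without a filter, 3 without those libraries and 29 with limma-voom and weights. Of the 34 other CREB targets, the calls in STING KO against WT were 3 with DESeq2, 2 without the 3 libraries and 12 with limma-voom and weights. Between STING KO and cGAS KO they were 3 with DESeq2, 1 without those libraries and 3 with limma-voom and weights. Leaving out each library in turn gave 0 calls throughout.

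With the replicate block edgeR called 0 genes in each comparison. Whether the numbers pair the libraries could not be told. Correlations of same-numbered libraries ranged from -0.447 to 0.502, and those of differently numbered libraries from -0.516 to 0.533. Among same-numbered libraries, each negative value was between a library that stands apart and another that does not, so the check followed that difference. With 3 libraries per group and a biological coefficient of variation of 38.8% (17.2% without the 3 libraries), small changes were not detectable. Another scaling moved the median log2 fold change of all genes most in STING KO against cGAS KO. There it was 0.08 with library totals only and 0.01 in the main fit.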

Other observations

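The neighbours of the microRNA host gene on chromosome 11 were followed as values. Dph1, an enzyme of diphthamide synthesis that overlaps Ovca2 on the same strand, was at 15.3 ± 2.80 (STING KO), 11.1 ± 1.99 (cGAS KO) and 13.5 ± 1.67 CPM (WT). Its log2 fold change was 0.18 (SE 0.23) in STING KO against WT, and the libraries overlapped. Hic1, a transcriptional repressor on the other side of the host gene, was at 2.91 ± 1.51 (STING KO), 2.90 ± 0.883 (cGAS KO) and 1.38 ± 0.731 CPM (WT). Its log2 fold change against WT was 1.06 (SE 0.55) in each knockout, with overlap, and edgeR called neither gene (adjusted p = 0.9999 for both against WT).

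Promoter windows of the other CREB targets were searched in the same way. RefSeq windows were matched for 26 of the 34 genes, and the full element TGACGTCA occurred upstream of 8 of them, 30.8%, where 1.77% of all 27025 genes had it. The short motif occurred upstream of 20 of the 26, 76.9%, where 19.8% of all genes had it. For the CREB machinery the short motif occurred upstream of 11 of 27 genes, 40.7%. A gene can have several start sites, and the share counts a gene with a match at any of them. The 27 machinery genes had 50 windows and the 26 other targets had 41, while all 27025 genes had 32851. By window, the short motif was in 26.0% for the machinery and 58.5% for the other targets, beside 17.8% of all windows.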
